A study of Gallus gallus with 5 samples.

Results

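The genes described here belong to the nuclear share of the mitochondrial oxidative phosphorylation machinery in hen granulosa cells, the follicle layer that lies against the oocyte. They were taken as the rows of the deposited expression table whose gene symbol starts with NDUF, UQCR, COX4 to COX8 or ATP5, or is SDHA, SDHB, SDHC, SDHD, CYC1 or CYCS, which gave 75 of 24356 listed genes. No row carried the symbol CYC1. Only 13869 of the listed genes had a symbol, so subunits in rows without one were missed. RefSeq symbols with no member included COX8A, NDUFA7, NDUFA11 and NDUFB11. Granulosa RNA came from follicles of 6 to 8 mm, pooled within each broiler breeder hen, and 1 poly(A)-selected library was made per hen. All hens were raised by commercial guidelines to 28 weeks of age. For the next 6 weeks the 2 FF hens had feed ad libitum, while the 3 RF hens stayed on a restricted allowance. The diets were given in separate pens, and the sequenced FF hens had been picked for excess preovulatory follicles and the RF hens for a usual number, so diet, pen and follicle number cannot be told apart. A further FF library, which the authors set aside as an outlier, was not analysed here.

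Oxidative phosphorylation passes electrons from NADH (complex I) or succinate (complex II) to ubiquinone, then through complex III and cytochrome c to complex IV, which reduces oxygen. The proton gradient built by complexes I, III and IV drives ATP synthesis by complex V. Most subunits are nuclear genes, while a few in complexes I, III, IV and V are encoded in the mitochondrial DNA, so each complex is built from both genomes. In steroid-producing cells the mitochondrion also holds CYP11A1, the enzyme that makes pregnenolone from cholesterol. Of the 75 members, 32 are complex I subunits (7 of the core and 25 accessory), 7 are complex I assembly factors, 4 belong to complex II, 9 to complex III together with cytochrome c, 10 to complex IV and 13 to complex V. NDUFA4, named for complex I, was counted with complex IV, where the protein is now placed. The member listed as COX4I2 carries the symbol COX4I1 in RefSeq (GRCg7b names).

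Values are normalized counts, the reads of a gene divided by a size factor for its library, and they summed to 29491091 and 28891495 in the FF libraries and to 25929234 to 27277087 in the RF libraries. Granulosa markers, FOXL2 among them, were present in every library (sums of 8 markers of 192715 and 140322 in FF hens and 98513 to 111265 in RF hens). CYP11A1, INHA and NR5A1 were higher in FF hens (adjusted p of 0.0115 to 0.0228, limma), WT1 and AMH lay wholly lower without passing the test (log2 fold changes of −1.42 and −0.62), and the other 3 overlapped (median of the 8 markers 0.15). RF replicate 1 stood apart in theca and stroma markers, where CYP17A1 had 73 and 134 normalized counts in FF hens and 1794, 84 and 207 in RF hens. Summed over 10 such markers, the level was 8006 and 7278 in FF hens and 5135 to 8320 in RF hens, and PDGFRA was at 0 in both FF libraries. Of the 8 such markers tested, 6 had a negative log2 fold change (median −1.15), and 1 lay wholly higher and 3 wholly lower in FF hens. Red blood cell markers were at 3637 and 3941 in FF hens and 1291 to 1617 in RF hens over 8 genes, of which ALAS2, a heme synthesis gene, made up most. Of the 4 tested, 3 lay wholly higher in FF hens and 1 was called higher (adjusted p = 0.0223 from limma), with a median log2 fold change of 1.79. Endothelial markers summed to 1561 and 2780 in FF hens and 1471 to 2058 in RF hens, mostly PECAM1, while 4 of the 5 had a negative log2 fold change (median −0.83) and 1, KDR, lay wholly lower. Oocyte markers summed to 202251 and 177822 in FF hens and 87640 to 111355 in RF hens, nearly all of it ZP3, an egg coat gene that avian granulosa cells also express. Of the 6 oocyte markers tested, 5 had negative log2 fold changes (median −0.56), with GDF9 and BMP15 wholly lower and ZP3 wholly higher. White blood cell markers summed to 1150 and 807 in FF hens and 635 to 934 in RF hens, with 1 of 4 wholly higher and 1 wholly lower. For all these marker counts, the shares over the 13305 tested genes were 19.3% wholly higher and 16.9% wholly lower in FF hens. By limma, 0.842% of tested genes were called higher and 0.241% lower. The part of these marker differences in the results below was not tested.

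The nuclear-encoded members lay mostly higher in FF than in RF hens, by small amounts. All 75 passed the minimum mean of 10 normalized counts, so that no member was lost to the filter. In 49 members both FF values lay above all 3 RF values, in 1 both lay below, and in 25 the groups overlapped. Over the 13305 genes tested, 19.3% lay wholly above and 16.9% wholly below. The log2 fold change was positive in 71 members and negative in 4, where 51% of all tested genes were positive. The median log2 fold change of the members was 0.29 (range −0.42 to 0.76), and that of all tested genes was 0.01.

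None of these differences passed the test for single genes. At an adjusted p under 0.05 from limma, 0 of 75 members were higher in FF hens and 0 were lower, while 0.842% of all tested genes were called higher and 0.241% lower. The study's thresholds add a log2 fold change beyond 1 and a group mean of at least 200. Applied here to the limma fit, they were passed by 0 members and 0.849% of tested genes. The study applied them to a DESeq2 fit and called more genes, among them WT1, which limma did not call. Whether members pass these thresholds in a DESeq2 fit was not tested. At an unadjusted p under 0.05, 28 members were higher in FF hens and 0 lower, against 9.58% and 8.22% of tested genes. The lowest adjusted p was 0.0536, for CYCS. The count of 28 depended on the settings: it was 10 with equal totals of the libraries, 11 with equal upper quartiles and 15 without a trend of the variance in limma. The share of all tested genes at this p was not counted under those settings, so these counts cannot be set against it.

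The size of the difference depended on how libraries were scaled, since the totals were larger in FF hens. With equal totals the median of all tested genes moved to −0.13 and that of the members to 0.15, with 66 positive and 9 negative. Then 27 members lay wholly above and 4 wholly below, where 10.9% and 27.3% of tested genes did. The gap between both medians was 0.28 or 0.29 under the deposited scaling, equal totals and equal upper quartiles. It stays nearly the same by construction, since rescaling a library shifts all its genes alike.

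**Figure D1:**
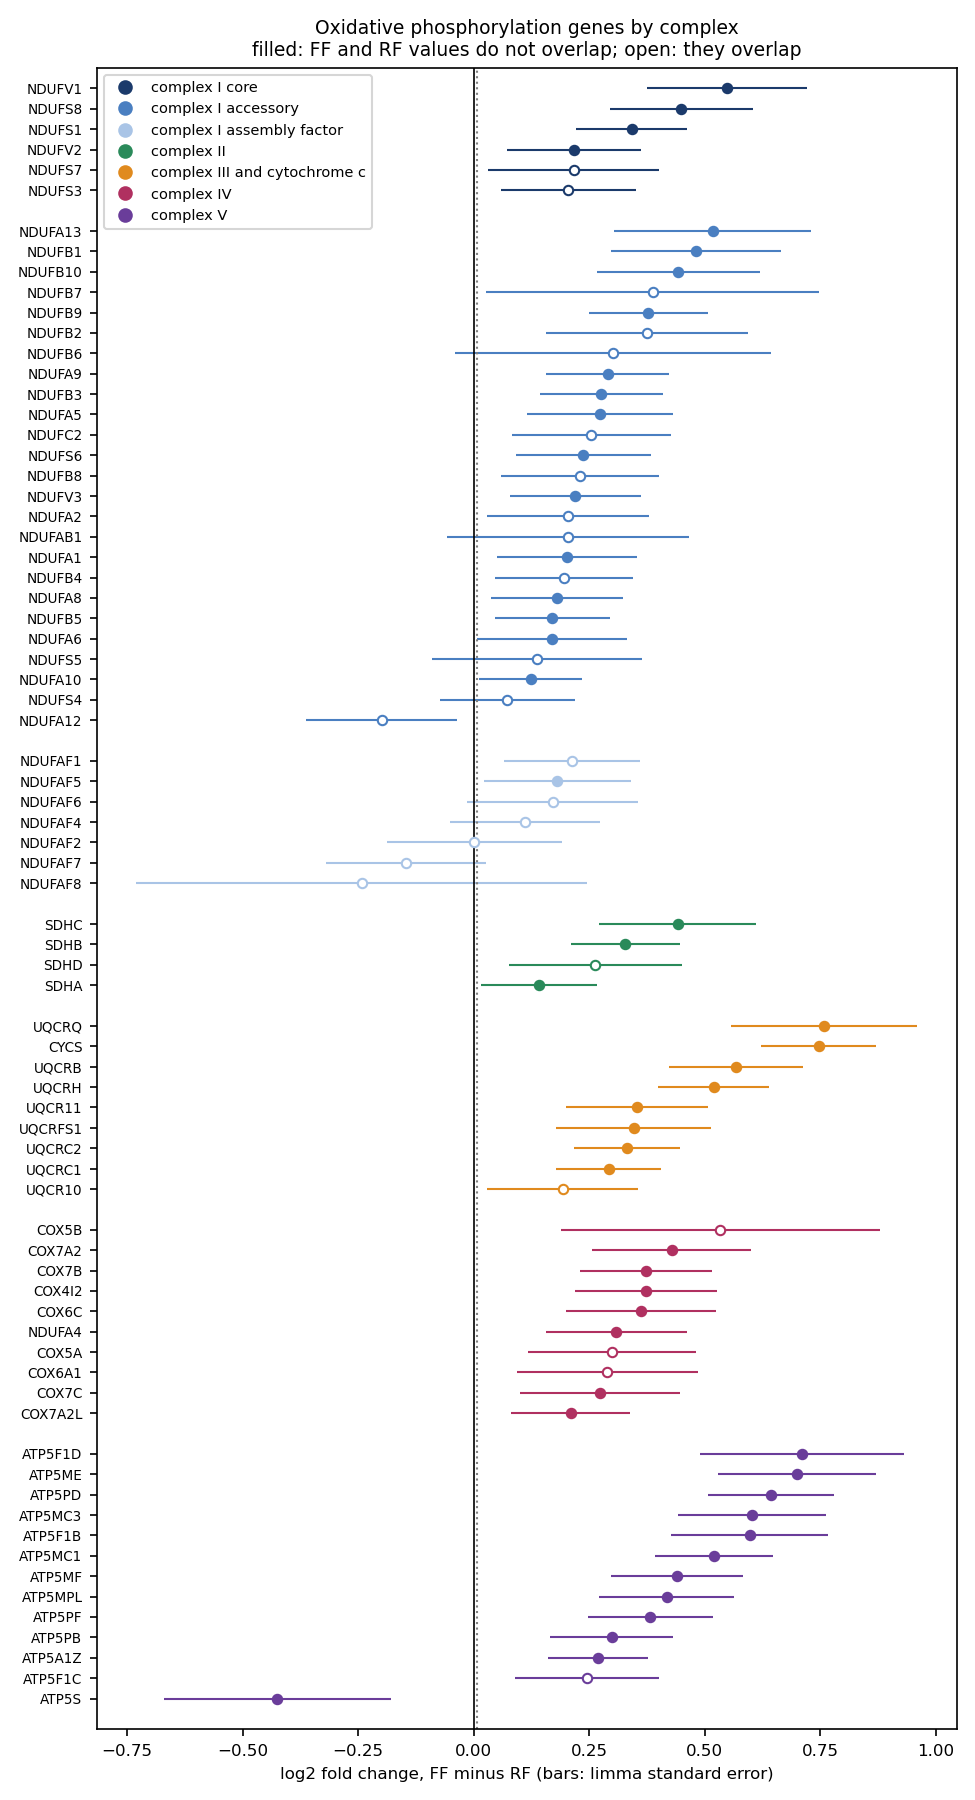
Log2 fold change of normalized counts, FF minus RF, for 74 of the 75 members by complex, with limma standard errors as bars. Filled points are members whose FF and RF values do not overlap, the solid line is 0 and the dotted line is the median of all tested genes (0.01). The points lie right of 0 in 70 of the 74 members shown, and those of complexes III and V reach furthest right.

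Complex V, the ATP synthase, had the largest median of the complexes with all 5 libraries, at 0.44. Without RF replicate 1 it was at 0.46, below the 0.47 of complex III with cytochrome c. Of the 13 members of complex V, 11 lay wholly higher in FF hens, 1 (ATP5S) wholly lower, and in 1 (ATP5F1C) the groups overlapped. The catalytic F1 head held ATP5F1B, the beta subunit that carries the catalytic sites, with 27152 and 21459 normalized counts in FF hens and 17045, 17483 and 13644 in RF hens. Both FF values were above every RF value, and the log2 fold change was 0.60 (adjusted p = 0.148 from limma, with a standard error, SE, of 0.17). ATP5F1D, the delta subunit of the central stalk, had 4717 and 3516 in FF hens and 2928, 2725 and 1932 in RF hens. Here RF replicate 3 was the lowest library, and the log2 fold change was 0.71 (adjusted p = 0.18, SE 0.22).

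The alpha subunit, listed as ATP5A1Z, differed less, with 9337 and 9128 in FF hens and 7413 to 7835 in RF hens (log2 fold change 0.27). RefSeq also lists a W-linked copy, ATP5F1AW, a symbol that no row carried, so the split of reads between the copies is uncertain. The gamma subunit ATP5F1C was the F1 member with overlapping groups, at 3269 and 4214 in FF hens and 2830 to 3309 in RF hens (log2 fold change 0.24).

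In the membrane part, the c-ring genes ATP5MC1 and ATP5MC3, which encode the same mature rotor subunit in mammals, lay higher in both FF hens. ATP5MC1 had 2143 and 2045 in FF hens and 1554, 1452 and 1379 in RF hens (log2 fold change 0.52, adjusted p = 0.106 from limma). ATP5MC3 had 3808 and 4206 in FF hens and 3025, 2708 and 2238 in RF hens (log2 fold change 0.60, adjusted p = 0.128). ATP5ME, the small e subunit at the dimer interface, had 1034 and 928 in FF hens and 562, 559 and 697 in RF hens (log2 fold change 0.70, adjusted p = 0.106). ATP5MF and ATP5MPL, further small membrane subunits, followed at 0.44 and 0.42.

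Among the members of the peripheral stalk, which holds the F1 head still, ATP5PD had the largest log2 fold change. It had 2739 and 2649 in FF hens and 1894, 1742 and 1555 in RF hens, a difference of 0.64 on the log2 scale (adjusted p = 0.0845 from limma, SE 0.14). The stalk subunits ATP5PF and ATP5PB were at 0.38 and 0.30. ATP5S, also called factor B, is not a core subunit of the enzyme, and it was the member that lay wholly lower, with 87 and 93 in FF hens and 132, 118 and 114 in RF hens. Its log2 fold change of −0.42 had a standard error of 0.25 (adjusted p = 0.417).

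Complex III and cytochrome c held the members with the lowest p (CYCS) and, with all 5 libraries, the largest log2 fold change (UQCRQ). CYCS, the soluble carrier of electrons between complexes III and IV and a trigger of apoptosis when released, had 4242 and 4669 normalized counts in FF hens and 2859, 2591 and 2519 in RF hens. The lowest FF value was above the highest RF value by more than the range within either group. FF hens averaged 4456 ± 302 (SD, n = 2) and RF hens 2656 ± 179 (SD, n = 3). The log2 fold change was 0.75 (adjusted p = 0.0536 from limma, SE 0.12). The adjusted p was 0.0492 when genes with a mean under 50 were left out, and between 0.0504 and 0.22 under the other alternatives.

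UQCRQ, a small subunit that contacts cytochrome b, had 2409 and 1559 in FF hens and 1213, 1094 and 1132 in RF hens. FF replicate 1 was far above FF replicate 2, while the RF hens were close to each other, and the log2 fold change was 0.76 (adjusted p = 0.129 from limma, SE 0.20). It was 0.44 without FF replicate 1, below the 0.82 of CYCS, and 1.07 without FF replicate 2. UQCRB, the ubiquinone-binding subunit, had 1752 and 2102 in FF hens and 1275, 1223 and 1390 in RF hens (log2 fold change 0.57). UQCRH, the hinge subunit near cytochrome c1, had 2491 and 2559 in FF hens and 1861, 1707 and 1721 in RF hens (log2 fold change 0.52, adjusted p = 0.0991).

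The larger subunits of complex III differed less. The core proteins UQCRC1 and UQCRC2 had log2 fold changes of 0.29 and 0.33, with 4710 and 5025 in FF hens against 3835 to 4133 in RF hens for UQCRC1, and 3701 and 3790 against 2823 to 3098 for UQCRC2. UQCRFS1, the Rieske iron-sulfur protein, had 3316 and 2984 in FF hens and 2113 to 2942 in RF hens (log2 fold change 0.35). UQCR11 was at 0.35 with no overlap, and UQCR10, at 0.19, was the member of the group whose values overlapped. Over the 9 genes the median was 0.35 and 8 lay wholly higher in FF hens.

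**Figure D2:**
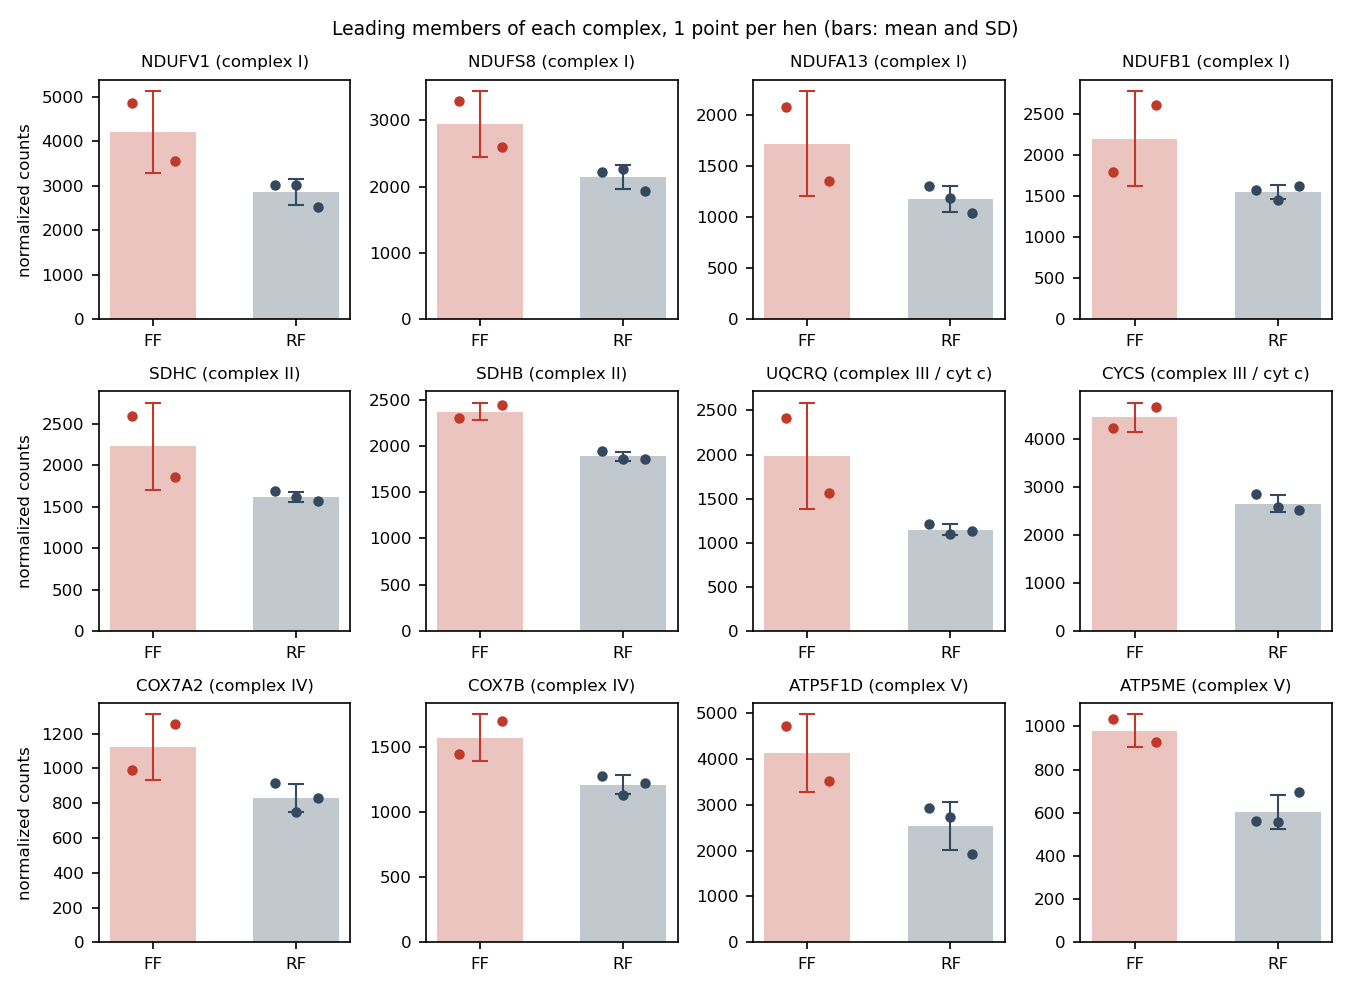
Normalized counts per hen for 12 members, the pair with the largest log2 fold change in each complex (and in the core and the accessory subunits of complex I) among those with no overlap between groups, FF left and RF right. Bars are means and error bars SD (n = 2 FF and n = 3 RF hens), and the axes start at 0. The FF points of CYCS (4242 and 4669) and SDHB (2302 and 2436) lie close together, whereas those of UQCRQ (2409 and 1559) and NDUFV1 (4850 and 3557) are spread.

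Complex I had a smaller median, 0.23 over its 32 subunits, with 31 positive and 19 wholly higher in FF hens. The 7 core subunits, among which are the carriers of the flavin and the iron-sulfur clusters, were all positive (median 0.34). NDUFV1, which binds NADH and the flavin, had 4850 and 3557 in FF hens and 3020, 3017 and 2516 in RF hens (log2 fold change 0.55 with an SE of 0.17, adjusted p = 0.183 from limma). NDUFS8, an iron-sulfur subunit near the quinone site, had 3291 and 2593 in FF hens and 2228, 2265 and 1939 in RF hens (log2 fold change 0.45, adjusted p = 0.209). NDUFS1, which holds several iron-sulfur clusters, had 7504 and 8154 in FF hens and 5841, 6634 and 6073 in RF hens (log2 fold change 0.34). In each of these genes both FF hens were above the RF range.

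NDUFV2, the partner of NDUFV1, had 1105 and 1330 in FF hens and 1035 to 1052 in RF hens (log2 fold change 0.22). NDUFS3 and NDUFS7 were the core subunits with overlap. NDUFS3 had 1604 and 1538 in FF hens and 1250 to 1541 in RF hens, and NDUFS7 had 3140 and 2285 in FF hens and 1991 to 2507 in RF hens (log2 fold changes 0.20 and 0.22).

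Of the 25 accessory subunits, which surround and stabilise the core, 14 lay wholly higher in FF hens and 24 were positive (median 0.23). NDUFA13, also known as GRIM19, had 2083 and 1355 in FF hens and 1303, 1185 and 1047 in RF hens (log2 fold change 0.52, adjusted p = 0.271 from limma). NDUFB1 had 1792 and 2603 in FF hens and 1572, 1451 and 1623 in RF hens (log2 fold change 0.48, adjusted p = 0.24). These leading accessory genes differed in which FF hen was highest. NDUFA12 was the accessory subunit with a negative value, at 1796 and 1315 in FF hens and 1755 to 1776 in RF hens (log2 fold change −0.20, overlapping groups). The 10 NDUFB genes, of the membrane arm, had a median of 0.34 with 5 wholly higher, and the 10 NDUFA genes, NDUFAB1 included, a median of 0.20 with 7 wholly higher.

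The 7 NDUFAF assembly factors help build complex I and are not part of the finished enzyme. With all 5 libraries they had the smallest median of the groups, 0.11. It was −0.03 with equal totals, where that of all tested genes was −0.13. With any 1 library left out it ran from 0.02 to 0.19. Without FF replicate 1 it was 0.19, above the 0.16 of complex I and the 0.18 of complex II. Only NDUFAF5, a modifying enzyme that acts on NDUFS7, lay wholly higher, at 686 and 744 in FF hens and 574 to 684 in RF hens (log2 fold change 0.18). This was 14.3% of the 7 factors, where 19.3% of all tested genes lay wholly higher. NDUFAF2 was nearly equal, at 282 and 254 in FF hens and 256 to 281 in RF hens (log2 fold change 0.00). NDUFAF8 varied most within groups, with 432 and 171 in FF hens and 417, 410 and 195 in RF hens. NDUFAF7 and NDUFAF8 had negative log2 fold changes of −0.15 and −0.24 with overlapping groups.

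Complex II, succinate dehydrogenase, is wholly nuclear-encoded and also works in the citric acid cycle. Its membrane anchor SDHC had 2600 and 1859 in FF hens and 1684, 1612 and 1563 in RF hens (log2 fold change 0.44, adjusted p = 0.246 from limma). The iron-sulfur subunit SDHB had 2302 and 2436 in FF hens and 1946, 1853 and 1861 in RF hens (log2 fold change 0.33, adjusted p = 0.223), with little spread in either group. SDHA, the flavin subunit that oxidises succinate, had 3543 and 3596 in FF hens against 2969, 3243 and 3517 in RF hens, a log2 fold change of 0.14 that turned to −0.01 when totals without the mitochondrially encoded genes were made equal. SDHD, the other anchor, overlapped at 4012 and 2933 in FF hens and 2436 to 3161 in RF hens.

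In complex IV, cytochrome c oxidase, all 10 members were positive and 7 lay wholly higher in FF hens (median 0.33). COX7A2 had 991 and 1256 in FF hens and 915, 752 and 828 in RF hens (log2 fold change 0.43, adjusted p = 0.262 from limma). COX7B had 1445 and 1697 in FF hens and 1276, 1132 and 1223 in RF hens (log2 fold change 0.37). COX4I2, the regulatory subunit 4 gene, had 2880 and 3517 in FF hens and 2692, 2178 and 2531 in RF hens (log2 fold change 0.37). In these genes FF replicate 2 was the highest library.

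COX5B had the largest fold change of complex IV, 0.53, but its groups overlapped, at 3037 and 1830 in FF hens and 2136, 1903 and 1063 in RF hens. COX5A and COX6A1 overlapped as well, with log2 fold changes of 0.30 and 0.29. COX6A1 had 4871 and 3553 in FF hens and 2861 to 3928 in RF hens. NDUFA4 had 2057 and 2390 in FF hens and 1567 to 1948 in RF hens (log2 fold change 0.31). COX7A2L, which links complexes III and IV in supercomplexes, had 2190 and 2296 in FF hens and 1829 to 2107 in RF hens (log2 fold change 0.21). Some of these subunits have tissue-specific isoforms in mammals. For COX4, COX6A, COX7A, NDUFA4 and the c ring, no row carried the symbol of a partner beyond those named.

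With all 5 libraries, the 13 subunits encoded in mitochondrial DNA had a median log2 fold change of 0.00, against 0.29 for the nuclear-encoded members. The difference between them was not tested, and their order reversed without FF replicate 1 (0.28 against 0.24). COX1, the catalytic subunit of complex IV, had 593919 and 798723 normalized counts in FF hens and 651379, 735403 and 639184 in RF hens. CYTB, of complex III, had 217629 and 277297 in FF hens and 230224, 246191 and 211194 in RF hens. ATP6, of complex V, had 313647 and 369766 in FF hens and 358608, 342272 and 293872 in RF hens. In these 3 genes FF replicate 2 was the highest library, and at least 2 RF hens lay between the FF values.

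The ND genes of complex I showed the same spread within FF hens, ND1 with 101257 and 169069 in FF hens and 114369 to 148018 in RF hens, and ND5 with 138035 and 214568 against 161668 to 200669. ND2, ND4 and ND4L overlapped likewise, at log2 fold changes of 0.00, 0.03 and −0.04, and ND3, ATP8, COX3 and COII were at −0.04, −0.04, −0.04 and 0.00. ND6 was the exception with no overlap, at 38016 and 50581 in FF hens and 30576, 32529 and 28327 in RF hens (log2 fold change 0.53, adjusted p = 0.177 from limma). ND6 is the subunit gene that lies on the opposite strand of the mitochondrial DNA. The study names a directional library kit, used after poly(A) selection. The sources used here do not say whether reads were counted by strand. Reads of ND6 and of transcripts antisense to it may therefore not be told apart. The mitochondrial median was 0.28 without FF replicate 1, −0.18 without FF replicate 2 and −0.13 with equal totals. In the same order, the median of the nuclear-encoded members was 0.24, 0.31 and 0.15. Together these 13 genes held 7.81% and 10.5% of the normalized counts in FF hens and 8.93% to 10.4% in RF hens. The 75 nuclear-encoded members held 0.673% and 0.63% in FF hens and 0.605%, 0.56% and 0.503% in RF hens.

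**Figure D3:**
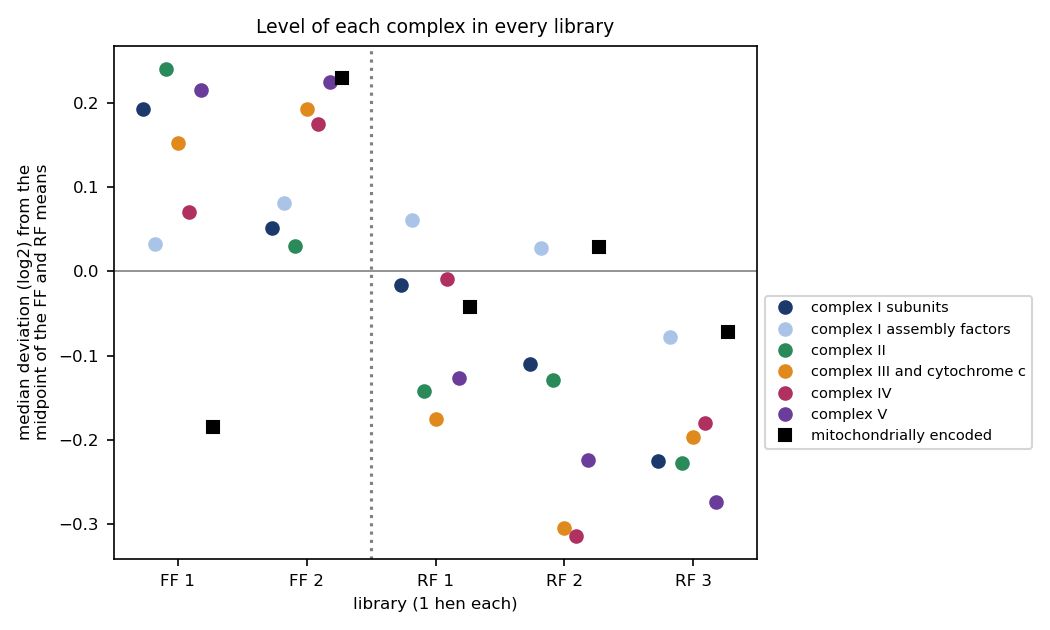
Level of each complex in every library, as the median over its genes of the log2 difference from the midpoint of the FF and RF means (1 library per hen, FF left and RF right). Complex V is at 0.22 and 0.23 in FF hens and at −0.13, −0.22 and −0.27 in RF hens, while the mitochondrially encoded subunits are at −0.18 in FF replicate 1 and 0.23 in FF replicate 2.

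By library, FF replicate 1 held the highest value of the 5 libraries in 41 members, FF replicate 2 in 30 and RF replicate 1 in 4. The lowest value fell in RF replicate 3 in 40 members and in RF replicate 2 in 25. The medians were close between FF hens in complex V (0.22 and 0.23) but not in complex I (0.19 and 0.05) or complex II (0.24 and 0.03). With any 1 library left out, the median log2 fold change ran from 0.42 to 0.48 for complex V, 0.34 to 0.47 for complex III with cytochrome c, 0.26 to 0.40 for complex IV, 0.18 to 0.39 for complex II and 0.16 to 0.32 for complex I. Without RF replicate 1, the library with high theca markers, the median of the members was 0.35, and 58 lay wholly higher in FF hens, where 24.3% of tested genes did.

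Hens of the same group also differed from each other, here in a contrast that was not among the comparisons set out in advance. FF replicate 1 exceeded FF replicate 2 by more than 1.2 times in 23 members, and in 21 of these RF replicate 3 was the lowest of the RF hens. FF replicate 2 exceeded FF replicate 1 by as much in 5 members, and RF replicate 3 was the lowest RF hen in 1 of those. Over all 75 members RF replicate 3 was the lowest RF hen in 43. These counts were not made over all tested genes. COX5B, NDUFB6, NDUFB7 and NDUFAF8 had the widest gaps between RF replicate 3 and the other RF hens, and NDUFAF8, COX5B, NDUFS5 and UQCRQ those between the FF hens. NDUFB7, an accessory subunit of the membrane arm, had 1059 and 742 in FF hens and 909, 824 and 415 in RF hens, and NDUFB6 had 952 and 676 against 856, 781 and 412. Over the 75 members the log2 difference between the FF hens and that of RF replicate 3 from the other RF hens had a Pearson r of −0.69 and a Spearman rho of −0.63. Over the 13305 tested genes these were −0.17 and −0.28. The points share the same 5 libraries, and genes are not independent replicates. By the read totals of the study, FF replicate 2 had more reads than FF replicate 1. RF replicate 3 had the most of the RF libraries, so hen and read depth cannot be told apart in this contrast.

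**Figure D4:**
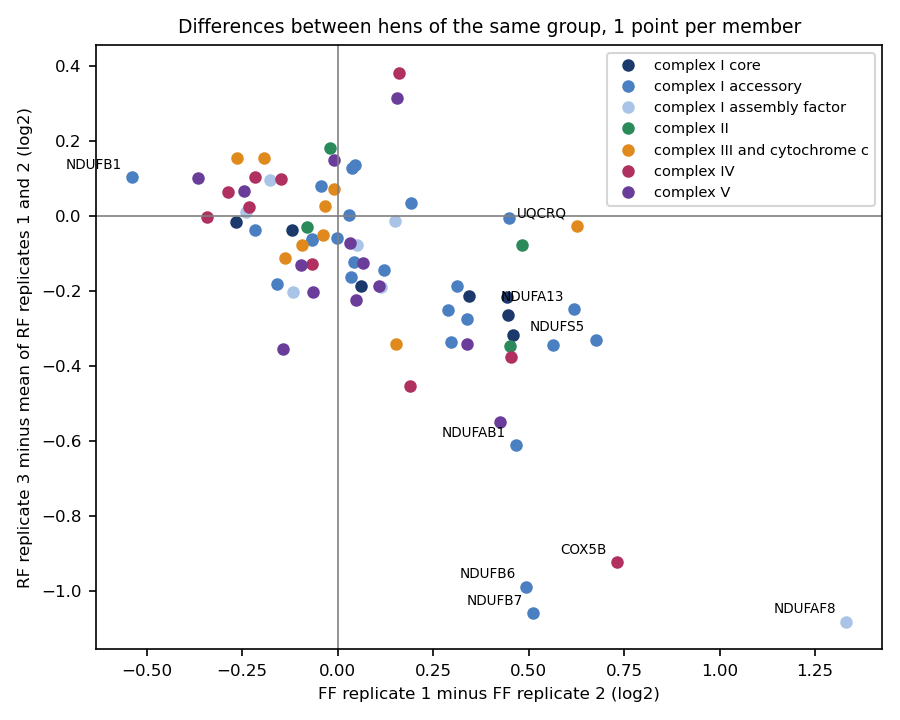
Differences between hens of the same group for the 75 members, in log2 normalized counts. The horizontal axis is FF replicate 1 minus FF replicate 2, the vertical axis RF replicate 3 minus the mean of RF replicates 1 and 2, and each point is 1 member. Many members high in FF replicate 1, such as COX5B and NDUFAF8, lie low in RF replicate 3 (Pearson r of −0.69 over the 75 members). Others, such as UQCRQ and SDHC, are high in FF replicate 1 with vertical values of only −0.03 and −0.08.

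Other mitochondrial lists gave smaller medians than the members, and 0 of their genes passed an adjusted p of 0.05 in limma. Of 69 tested mitochondrial ribosomal protein genes, which translate the mitochondrially encoded subunits, 22 lay wholly higher in FF hens and 2 wholly lower (median log2 fold change 0.19, 1 higher and 0 lower at an unadjusted p under 0.05). Of 15 tested TOMM and TIMM genes of protein import, 4 lay wholly higher and 1 wholly lower (median 0.19, 2 and 0). Of 11 tested genes of phosphate and adenine nucleotide exchange, porins and uncoupling carriers, 6 lay wholly higher and 0 lower (median 0.16, 3 and 0). Of 37 tested assembly factors of the complexes outside the NDUFAF family, 8 lay wholly higher and 2 lower (median 0.07, 3 and 0). The shares wholly higher were 31.9% for the ribosomal proteins, 26.7% for import, 54.5% for exchange and 21.6% for assembly factors. Over all tested genes, 19.3% lay wholly higher and 16.9% wholly lower. At an unadjusted p under 0.05 from limma, 9.58% of all tested genes were higher and 8.22% lower. With equal totals the list medians were 0.05 for the ribosomal proteins, 0.05 for import, 0.02 for exchange and −0.07 for assembly factors, set against −0.13 for all tested genes.

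A list of 17 tested genes held ubiquinone synthesis, other enzymes that pass electrons to ubiquinone, and the ferredoxin pair that feeds electrons to CYP11A1. At an unadjusted p under 0.05 from limma, 3 of its genes were higher and 3 lower in FF hens (median 0.22, and 0.08 with equal totals). In this list 9 lay wholly higher and 4 wholly lower in FF hens, where 19.3% and 16.9% of all tested genes did. The higher ones included FDX1, the ferredoxin, with 1253 and 1248 in FF hens and 832, 874 and 782 in RF hens (log2 fold change 0.59, adjusted p = 0.0962 from limma). COQ8B, a kinase-like protein needed for ubiquinone synthesis, was among the lower ones, with 5150 and 5201 in FF hens and 6855, 8111 and 7729 in RF hens (log2 fold change −0.54, adjusted p = 0.0949). Outside this list, among the assembly factors outside the NDUFAF family, was ACAD9, an assembly factor of complex I. It had 4560 and 4557 in FF hens and 2865, 3188 and 3011 in RF hens (log2 fold change 0.59, adjusted p = 0.0702 from limma). These 3 genes were picked after their values were seen.

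**Figure D5:**
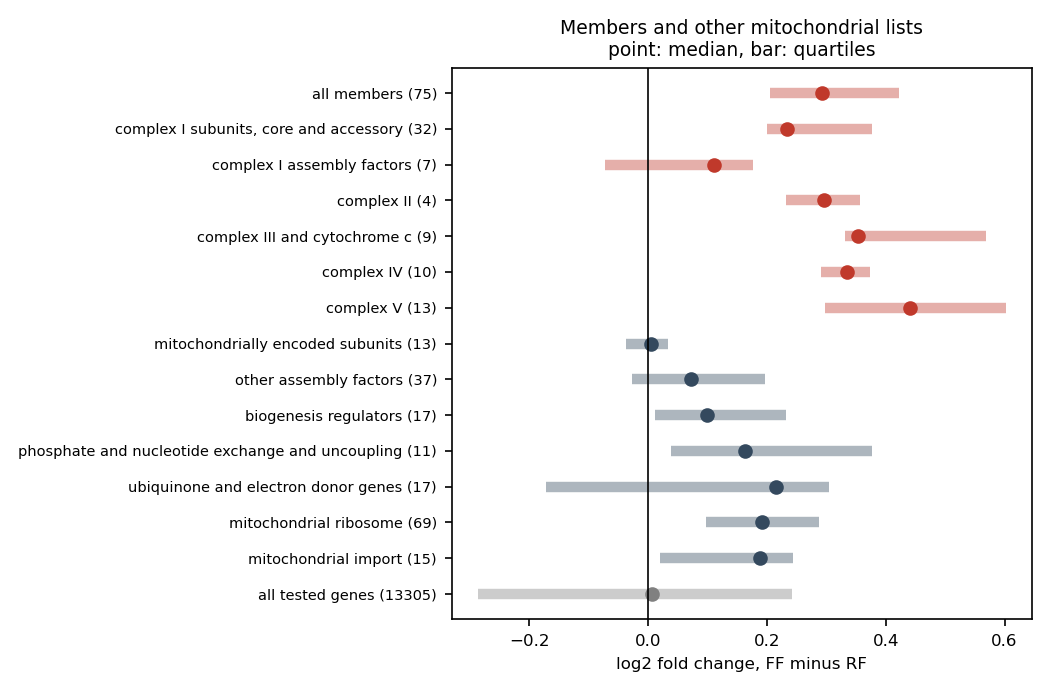
Median log2 fold change (FF minus RF, points) and quartiles (bars) of the members, of each complex, of other mitochondrial gene lists and of all tested genes, with the number of tested genes in brackets. With all 5 libraries, complex V has the highest median, 0.44, and the mitochondrially encoded subunits lie at 0.00, close to the 0.01 of all tested genes. Without FF replicate 1, which is not shown, the mitochondrially encoded subunits were at 0.28 and the members at 0.24.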

How the data were processed

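Reads were trimmed with Trim Galore and mapped to galGal6 with STAR by the authors, who then normalized gene counts by DESeq2 size factors. The deposited normalized counts had been rounded to whole numbers and were handled as a score, since they are not raw counts. The sources used here give neither tool versions nor the read counter. All 5 columns were matched to hens by the labels.

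FF was compared with RF in limma 3.58.1 (R 4.3.3), two-sided, after adding 1 to the normalized count and taking log2. Genes needed a mean of at least 10 (13305 genes), p-values were adjusted by Benjamini-Hochberg over these genes, and the prior variance followed a trend with the mean. With 3 residual degrees of freedom, single hens weigh heavily, and fold changes of low genes are understated. The procedure was tested on simulated data with independent genes and the same noise for every gene. That test does not bear on small differences shared by many genes. Members, lists and rules were chosen with earlier results of these data known. The rule named members with an adjusted p under 0.05, the pair of largest non-overlapping changes per complex and direction, core and catalytic subunits, isoform genes and all mitochondrially encoded subunits; other members with values were picked after their values were seen. RefSeq names (GRCg7b) matched 61 members by symbol and 9 by synonym, with 5 unmatched. For 1 member, counted in all totals, single values are not reported here. In 15 alternatives the pseudocount, minimum mean, scaling, variance model, replicate block or libraries were changed. Figures used matplotlib 3.10.9.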

Additional observations from a re-analysis of the deposited data

How the results depend on the processing

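Of 495 values of 33 members taken by the naming rule under the 15 alternatives, 492 kept their direction and their side of the threshold. None of these members passed in the main fit, so keeping the side meant not passing again. Changes of the minimum mean or variance model leave fold changes as they were by construction. The replicate block gives the members the fold changes found without RF replicate 3. The 492 are therefore no measure of stability. CYCS passed when genes with a mean under 50 were left out, so that 1 member was called higher (log2 fold change 0.75). Of all 11084 genes tested under that setting, 121 were called higher and 36 lower. Whether the members were called more often than other genes was not tested. SDHA turned to −0.0061 with equal totals without the mitochondrially encoded genes, and NDUFS7 ran from −0.012 to 0.45 with 1 library left out, the negative value without FF replicate 1. Rescaling by equal totals, by equal upper quartiles and by equal totals without the mitochondrially encoded genes gave 31, 33 and 27 members with no overlap, against 50 as deposited, and medians of 0.15, 0.18 and 0.14. Of these, 4 lay wholly lower under each rescaling, while of all tested genes 10.9%, 12.3% and 10.1% lay wholly higher and 27.3%, 24.2% and 27.6% wholly lower. The cause was not tested beyond the totals themselves: the larger totals of FF hens make these values lower by construction. With 1 library left out, 51 to 69 members had no overlap and the median was 0.24 to 0.35. The share of all genes with no overlap grows by construction with fewer libraries, and 23% to 33.7% of them then lay wholly higher and 21.6% to 31.1% wholly lower. Without a trend in limma, 0 genes of all those tested were called, and the lowest adjusted p of a member was 0.13. The replicate numbers in the labels are not stated to pair hens. Deviations correlated at 0.11 for replicates numbered 1 and −0.07 for those numbered 2, and with the replicate block 0 members were called, with a median of 0.25. With 5 libraries, small differences of the size seen here are at the limit of the test, and a member that missed the threshold is not shown to be equal between diets.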

Other observations

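Among 17 tested regulators of mitochondrial gene expression, 4 lay wholly higher and 2 wholly lower in FF hens (median log2 fold change 0.10, and −0.04 with equal totals), and 0 passed an adjusted p of 0.05 in limma, with 3 higher and 2 lower at an unadjusted p under 0.05. The share wholly higher was 23.5%, near the 19.3% of all tested genes, of which 16.9% lay wholly lower. The genes below were picked after their values were seen. The paralogs TFB1M and TFB2M, known in mammals as a methyltransferase of mitochondrial ribosomal RNA and an initiation factor of mitochondrial transcription, lay in opposite directions. TFB1M had 441 and 600 normalized counts in FF hens and 699, 668 and 741 in RF hens (log2 fold change −0.45, adjusted p = 0.277 from limma). TFB2M had 620 and 618 in FF hens and 460, 465 and 455 in RF hens (log2 fold change 0.43, adjusted p = 0.216). ESRRB, an orphan nuclear receptor of the estrogen-related family, had 592 and 303 in FF hens and 81, 213 and 108 in RF hens (log2 fold change 1.77, adjusted p = 0.129).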
